A study of Bos taurus with 12 samples.

Results

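A set of 132 genes lost much of its expression both when insulin and when rosiglitazone was left out of the medium in which bovine stromal vascular cells (SVC) were turned into fat cells. The set was chosen from the expression values themselves, among 22372 genes, by 3 conditions. A gene needed a mean of at least 20 CPM in the complete medium, where CPM is its number of reads scaled to a common library total. Its mean difference to the complete medium had to be -1 or lower on the log2(CPM + 1) scale without insulin, and also -1 or lower without rosiglitazone. All 6 single differences, 3 donors in each of the 2 media, had to be below 0. Of the 22372 genes, 3861 met the first condition, 233 of these fell far enough without insulin and 406 without rosiglitazone, 145 fell far enough in both, and 132 had all 6 differences below 0. The falls in these 2 media, and the difference between them, are therefore given as a description.

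The cells came from the subcutaneous fat of Belgian Blue cattle and were held in their media until day 12. The complete medium, rDM, contained the hormone insulin (Ins), the synthetic drug rosiglitazone (Ros), and the pair of steroid hormones hydrocortisone and progesterone (HC/PR). The deprived media kept the rest of this mixture, with no insulin in rDM 0% Ins, no rosiglitazone in rDM 0% Ros, and neither steroid in rDM 0% HC/PR. Cells of 3 donors, named A, B and C, were each put through all 4 media, so that there were 12 mRNA libraries. Cells of all groups were primary cultures of 1 isolation per donor, and each donor was also 1 batch of mRNA extraction and cDNA making. The libraries were read as long cDNA reads in 2 pools. Donor A was wholly in 1 pool and donor C wholly in the other, while donor B had rDM and rDM 0% Ins in the first pool and the other media in the second. A library held from 302754 to 1153853 estimated reads, and 3 reads were worth 2.71 CPM in the deepest and 10.2 CPM in the shallowest. A listed 0 allows a level of up to 3 reads. Such limits, and the intervals given for shares, rest on reads recovered from the batch-adjusted gene values. They cover counting error alone, because copies made by PCR are counted as well.

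By way of background, insulin acts through its receptor on the cell surface and, in fat cells, drives the uptake of glucose and the making and storing of lipid. Rosiglitazone binds PPARγ, the nuclear receptor that directs the formation of fat cells, and switches on its target genes. Hydrocortisone acts on the glucocorticoid receptor and is a common part of mixtures that start adipogenesis, and progesterone is a steroid that can also bind this receptor. The gene identifiers were not paired with names in the tables used here, so the members' functions, the markers of fat cells and of other cell types, and the sequences of the members were not analysed here. Genes are given by their Ensembl identifiers, and a few by their values alone.

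The members took up a large part of the mRNA reads in rDM, little without rosiglitazone, and amounts between these in the other media. Their summed share of all reads in rDM was 9.03% in donor A, 9.75% in donor B and 8.97% in donor C. Without insulin the share was 3.73%, 2.42% and 3.99% in the same donors, and without rosiglitazone it was 0.608%, 1.07% and 0.965%. Without HC/PR, the medium that had no part in choosing the members, the share was 6.29%, 5.14% and 6.16%. The 3 libraries of each medium thus stayed together, and no library of one medium overlapped with one of another. The choice asked for high values in rDM and for falls without insulin and without rosiglitazone, so this order is given as a description. The mean share was 9.25% ± 0.434 in rDM, 5.86% ± 0.63 without HC/PR, 3.38% ± 0.839 in the insulin-free medium and 0.882% ± 0.243 without rosiglitazone (SD, n = 3). The 95% Wilson interval of a single share reached between 0.021 and 0.0868 percentage points to either side, which was below the spread between donors. In these bulk libraries, fewer cells of a type and less RNA per cell cannot be told apart.

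**Figure D1:**
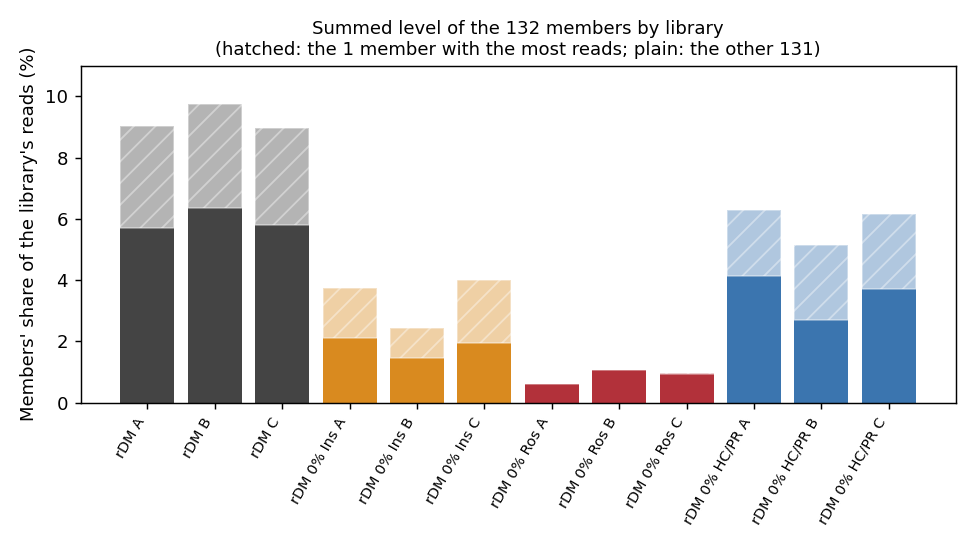
Summed share of reads (percent of a library's reads) taken by the 132 members in each of the 12 libraries, coloured by medium, with a bar per library whose hatched part is the member with the most reads. The rDM bars reach 8.97% to 9.75%, those without HC/PR 5.14% to 6.29%, those without insulin 2.42% to 3.99%, and those without rosiglitazone 0.608% to 1.07%.

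A single gene held much of this share. ENSBTAG00000037526 had the highest level of all members and made up 35.7% of their summed CPM in rDM, and the 10 highest members together made up 71.4%. Without this gene the members' share of reads was 5.95% ± 0.352 in rDM, 3.52% ± 0.738 without HC/PR, 1.84% ± 0.341 in the insulin-free medium and 0.861% ± 0.238 without rosiglitazone (SD, n = 3). The order of the media was therefore the same with and without it.

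ENSBTAG00000037526 was at 33216, 33949 and 31799 CPM in rDM in donors A, B and C. Without insulin it was at 16214, 9649 and 20272 CPM, and without rosiglitazone at 128.9, 174.5 and 325.1 CPM. Without HC/PR it was at 21485, 24360 and 24388 CPM. No library of one medium overlapped with one of another. The gene kept 46.6% of its mean rDM level without insulin and 0.635% without rosiglitazone, and 71% without HC/PR. The level without rosiglitazone was below that without insulin in 3 of 3 donors, by a log2 difference of -6.23 ± 0.638 (SD, n = 3).

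ENSBTAG00000010265 was the second highest member, at 5446, 6552 and 6419 CPM in rDM. Without insulin it was at 2575, 2231 and 3359 CPM, without rosiglitazone at 274.9, 361.2 and 458.8 CPM, and without HC/PR at 3867, 2730 and 3700 CPM. All rDM libraries lay above all others and all libraries without rosiglitazone below, while the ranges without insulin and without HC/PR overlapped. It kept 44.3% of its mean rDM level without insulin and 5.94% without rosiglitazone, while 55.9% was left in the HC/PR-free medium. Its difference between the media without rosiglitazone and without insulin was -2.91 ± 0.301 (SD, n = 3).

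**Figure D2:**
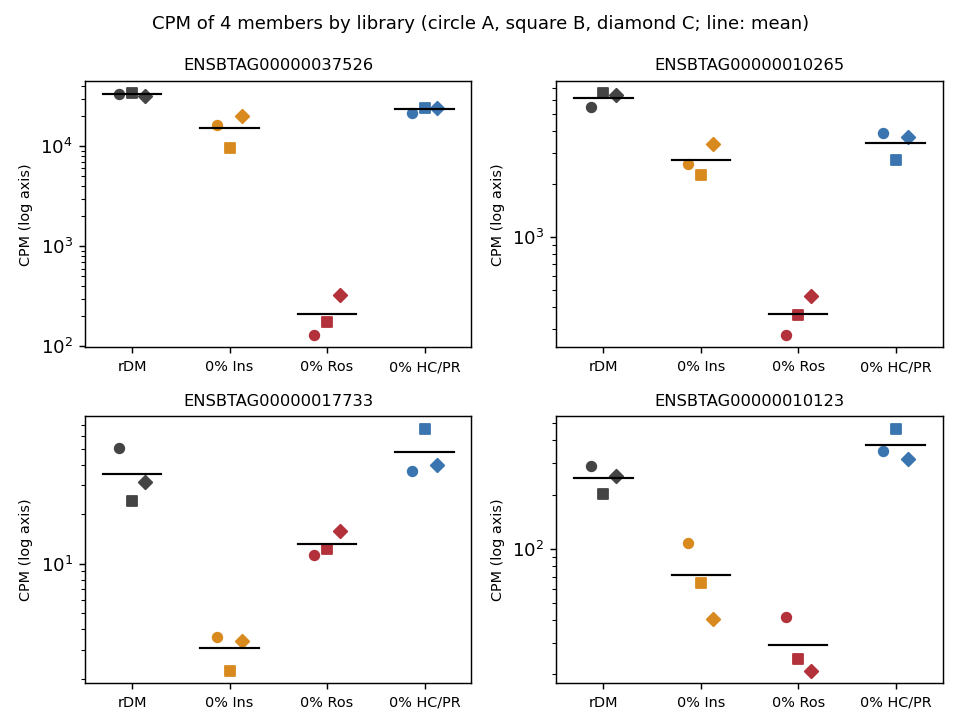
CPM (log axis) of the 4 members given by identifier in each library, by medium, with a circle for donor A, a square for B, a diamond for C and a line for the mean. ENSBTAG00000037526, ENSBTAG00000010265 and ENSBTAG00000010123 are lowest without rosiglitazone and ENSBTAG00000017733 is lowest without insulin.

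The members covered a wide range of levels in rDM, with means from 20.6 to 32988 CPM, a median of 92.3 CPM and quartiles at 42.8 and 295.2 CPM. These are counts of reads after batch adjustment, which include copies made by PCR, so they do not rank the genes by molecules. Of the 132 members, 15 had at least 1000 CPM in rDM, 48 had between 100 and 1000 CPM and 69 had between 20 and 100 CPM. All 132 reached 5 CPM in 3 or more libraries, the filter of the test, and 131 of them did so in the 3 rDM libraries alone, where the choice asks them to be high. Just inside the level condition were members at 20.6 and 21.6 CPM, and just outside it were genes at 19.97 and 19.68 CPM that met the other conditions. Of the mean differences without insulin, the members nearest the limit had -1.005 and -1.015 and the nearest genes outside it -0.99 and -0.99. Without rosiglitazone these values were -1.04 and -1.07 inside and -0.99 and -0.89 outside.

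Over the 132 members the mean difference to rDM had a median of -1.65 without insulin, with quartiles at -2.32 and -1.20 and extremes at -5.67 and -1.005. Without rosiglitazone the median was -2.95, with quartiles at -4.35 and -1.75 and extremes at -10.36 and -1.04. As a share of the mean rDM level, the median member kept 32% without insulin and 13.9% without rosiglitazone. The mean loss was greater without rosiglitazone in 112 members, greater without insulin in 19, and equal in 1 member, which was at 0 in all libraries of both media. The 112 are 84.8% of the members, while 56.5% of the genes tested and 64.2% of those with at least 20 CPM in rDM were also lower without rosiglitazone than without insulin. A difference of at least 1 on the log2 scale separated the 2 losses in 73 members, of which 70 had the greater loss without rosiglitazone and 3 without insulin, and 59 members were closer than that.

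Loss down to 0 was also more frequent without rosiglitazone. In the 3 libraries without rosiglitazone 26, 27 and 26 members were at 0, against 2, 13 and 7 without insulin and 0, 1 and 0 without HC/PR, for donors A, B and C. In rDM no member was at 0 in any library, which the choice itself requires. Of the members, 11 were at 0 in all 3 libraries without rosiglitazone and 1 in all 3 without insulin. In 39 members no library without rosiglitazone held more than 3 reads, against 8 members without insulin. For these members the size of the fall is set by the depth and by the pseudocount of 1 and is not a measure of what was left. The libraries without insulin held 302754 to 578595 estimated reads, those without rosiglitazone 333466 to 537936, and those of rDM 424759 to 1153853. The part of depth in these counts of zeros was not tested.

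**Figure D3:**
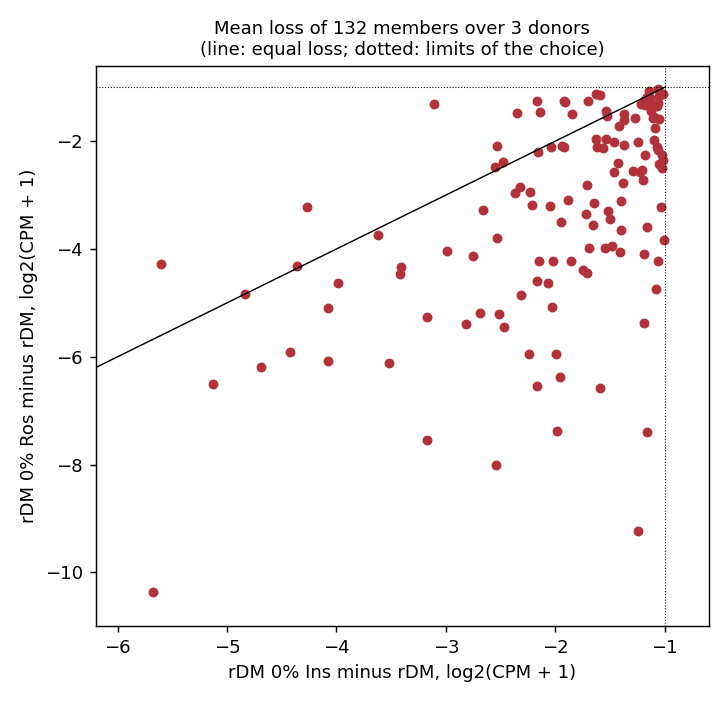
Mean difference to rDM on the log2(CPM + 1) scale without insulin (horizontal axis) and without rosiglitazone (vertical axis), with a point per member, a line of equal loss and dotted limits of the choice. Of the 132 points, 112 lie below the line, on the side of the greater loss without rosiglitazone, and 19 above it.

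The choice used the values of both media, so the difference between them is given as a description, and nothing is read from the counts that follow. In limma on log2(CPM + 1) over 9267 genes, blocked by donor and adjusted by Benjamini-Hochberg, 38 members fell past an adjusted p of 0.05 on the side of the lower level without rosiglitazone and 0 on the other side. Among all genes tested the shares were 1.48% and 0.594%. The count was 27 in DESeq2 on the recovered reads, where 1.04% of all genes were on that side, and 22 in edgeR, where 0.874% were. It was 16 without donor A, 36 without donor B and 16 without donor C, beside 0.766%, 0.852% and 0.507% of all genes, and 25 with the pool as a term, beside 0.852%. It was 25 without the library of donor A in rDM 0% Ins, 22 without that of donor C there and 22 without that of donor A in rDM 0% Ros, beside 1.29%, 0.712% and 1% of all genes. The members' count and the share of all genes thus both changed with the libraries used. All 3 libraries without rosiglitazone lay below all 3 without insulin in 52 members, or 39.4%, beside 11.6% of the genes tested and 18.3% of the genes with at least 20 CPM in rDM. The opposite separation, with all libraries without insulin below all those without rosiglitazone, was seen in 2 members, or 1.52%, beside 7.09% and 7.59% of the same genes.

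Over all members the difference between the media without rosiglitazone and without insulin had a median of -1.06, against -0.11 over the genes tested and -0.16 over the genes with at least 20 CPM in rDM. The median was -1.51 in donor A, -0.74 in donor B and -0.80 in donor C, beside 0.00, -0.38 and -0.17 over the genes with at least 20 CPM. The members were thus furthest from the other genes in donor A and nearest in donor B. The compared libraries of donor B were in different pools, while donor A and donor C were each wholly in 1 pool. With the library pool as a term beside the donor the median over the members was -0.96. The median was -1.11 without donor B, -0.87 without donor A and -1.23 without donor C, and -0.55 over all donors at a pseudocount of 10 in place of 1.

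The gap between the 2 media was also described by level. The median difference between the media was -1.78 for the members with at least 1000 CPM, -1.11 for those between 100 and 1000 CPM and -0.92 for those below 100 CPM. At 0 in at least 1 library without rosiglitazone were 1 of 15, 8 of 48 and 31 of 69 members of these groups. In such members the gap is limited by the depth and the pseudocount. The median level left without insulin was 29.8%, 33.4% and 31.7% of rDM in these 3 groups, and without rosiglitazone it was 7%, 14.7% and 17.5%. Of the 15 members with at least 1000 CPM, 14 fell further without rosiglitazone than without insulin.

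The member with the widest gap was at 738.6, 1000 and 843.2 CPM in rDM and at 338.6, 319.3 and 433.5 CPM without insulin. Without rosiglitazone it was at 1.9 CPM, a single read, in donor A and at 0 in donors B and C. Without HC/PR it was at 415.1, 220.8 and 451 CPM. This gene, chosen here after its values were seen, thus kept expression in every library without insulin and next to none without rosiglitazone, and no fold is given against so few reads.

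A smaller group of 19 members fell further without insulin than without rosiglitazone. They had a median rDM level of 64.4 CPM and kept 22.9% of it without insulin and 37.1% without rosiglitazone in the median. Their differences between the 2 media ranged from 0.03 to 1.80 with a median of 0.45. The largest belonged to ENSBTAG00000017733, which was at 50.6, 24.2 and 31.2 CPM in rDM. Without insulin this gene was at 3.6, 2.23 and 3.39 CPM, without rosiglitazone at 11.4, 12.2 and 15.7 CPM, and without HC/PR at 36.5, 66.5 and 40.1 CPM. The libraries without insulin lay below those without rosiglitazone in each donor and did not overlap with them. These levels without insulin stand for 1 or 2 reads per library, so the size of the difference depends on the pseudocount, with 1.80 on the log2 scale at a pseudocount of 1 and 0.82 at 10, and the gene was chosen for this gap after its values were seen.

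Among the 15 members with at least 1000 CPM in rDM a single one fell further without insulin, the third highest member of all. It was at 5298, 5273 and 5878 CPM in rDM, at 2545, 1159 and 1619 CPM without insulin, at 1263, 3590 and 2693 CPM without rosiglitazone, and at 4153, 3344 and 4405 CPM without HC/PR. In donor A it was lower without rosiglitazone and in donors B and C lower without insulin, so the donors did not share a direction. Its mean difference between the 2 media was 0.45.

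The medium without HC/PR had no part in the choice. In it the members stood nearer to rDM than in the other media, which the choice favours, since it asked for falls in those media alone. The difference to rDM had a median of -0.68 over the members, with quartiles at -0.98 and -0.42 and extremes at -2.54 and 0.60. The median was 0.00 over all genes tested and -0.07 over the genes with at least 20 CPM in rDM. In the median a member kept 66.1% of its rDM level, with quartiles at 53.6% and 78.2%. The mean level without HC/PR was under 50% of that in rDM in 20 members, at 50% to 100% of it in 103, and at or above it in 9. Comparisons of each medium with rDM share the rDM libraries, in which the members were chosen to be high, so a median below 0 without HC/PR is not independent of the choice.

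**Figure D4:**
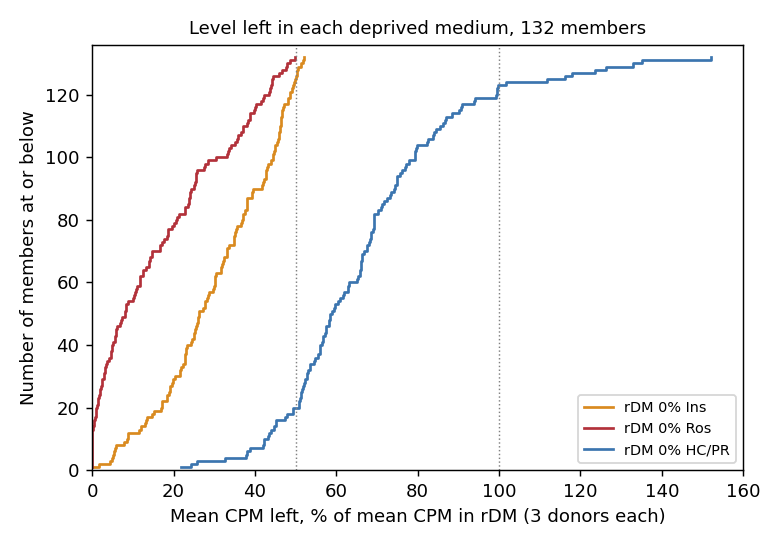
Number of members (vertical axis) whose mean level left in a medium, in percent of their mean rDM level, is at or below the value on the horizontal axis, with a step curve for each deprived medium and dotted lines at 50% and 100%. The median member had 13.9% left without rosiglitazone, 32% in the insulin-free medium and 66.1% without HC/PR, and 9 members lie at or above 100% without HC/PR.

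No single member passed the limma test of the medium without HC/PR against rDM. In limma with Benjamini-Hochberg adjustment 0 of 132 members were called at an adjusted p under 0.05, where 1 of all 9267 genes was called lower, or 0.0108%, and 1 higher. The smallest adjusted p of a member was 0.0982. At an unadjusted p under 0.05, 29 members, or 22%, were lower and 0 higher, against 2.73% of all genes that were lower. The count of calls was also 0 in edgeR, with 39 members lower at an unadjusted p under 0.05, against 2.95% of all genes. DESeq2 with the same block called 6 members, all lower, with log2 fold changes from -1.44 to -0.86, where it called 0.119% of all genes lower. The members, unlike all genes, were chosen to be high in these rDM libraries, so their shares are not independent of the choice. The standard error of a member's difference had a median of 0.469 in limma and ran from 0.177 to 1.47, which is of the size of the median difference. ENSBTAG00000010265, the second highest member, is 1 of the 6 and differed by -0.85 in limma (SE 0.195, adjusted p = 0.297). For ENSBTAG00000037526 the difference was -0.50 (SE 0.269, adjusted p = 0.938, limma), with the HC/PR-free libraries below rDM in 3 of 3 donors.

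All 3 libraries without HC/PR lay below all 3 rDM libraries in 64 members, or 48.5%, against 7.88% of the genes tested and 12.2% of the genes with at least 20 CPM in rDM. The reverse was seen in 1 member, against 7.65% and 6.06% of the same genes. Taken donor by donor, 72 members were lower without HC/PR in all 3 donors, or 54.5%, against 18% of the genes with at least 20 CPM. The choice asked for high values in these same rDM libraries, so the members' shares are not independent of it. The median differed between donors, at -0.30 in donor A, -1.07 in donor B and -0.62 in donor C, beside -0.08, -0.00 and -0.15 over the genes with at least 20 CPM. Donor B, with the lowest median, is the donor whose rDM and HC/PR-free libraries were in different pools. Without donor B the median over the members was -0.45, and over all donors with the pool as a term it was -0.65.

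**Figure D5:**
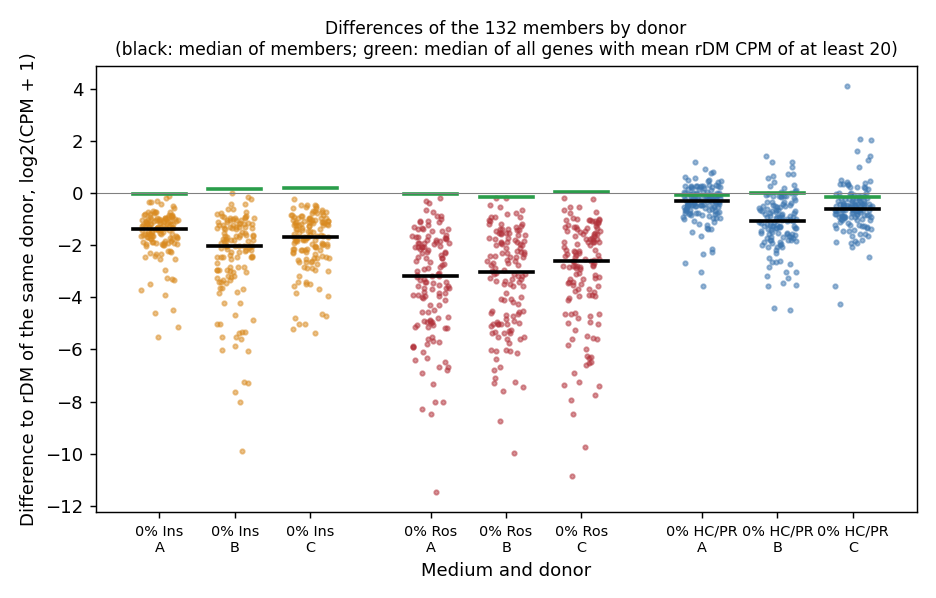
Difference to rDM of the same donor on the log2(CPM + 1) scale, with a point per member for each deprived medium and donor, a black line for the members' median and a green line for the median of all genes with at least 20 CPM in rDM. The black lines without HC/PR lie at -0.30, -1.07 and -0.62 in donors A, B and C. Those of the other media lie further from 0, where the choice asked for falls.

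Among the 9 members with a mean level without HC/PR at or above that in rDM was ENSBTAG00000010123. It was at 288.9, 202.5 and 252.2 CPM in rDM and at 350.4, 465.6 and 315.3 CPM without HC/PR. It was the only member higher without HC/PR in all 3 donors, and the 2 media did not overlap. Without insulin it was at 108.1, 64.8 and 40.6 CPM and without rosiglitazone at 41.7, 24.5 and 21 CPM. Its difference without HC/PR was 0.60 (SE 0.285, adjusted p = 0.935, limma), so the rise was not called. The gene was chosen for its direction after its values were seen.

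The deepest fall without HC/PR, a log2 difference of -2.54, belonged to a member at 25.3, 21.2 and 26.4 CPM in rDM and at 8.3, 0 and 7.64 CPM without HC/PR (SE 1.1, adjusted p = 0.859, limma). The member at 0 in all libraries without insulin and without rosiglitazone was at 45.1, 31.7 and 14.4 CPM in rDM and at 24.9, 50.6 and 45.9 CPM without HC/PR, so that it was present in all 6 libraries that held both insulin and rosiglitazone and in none of the other 6. The lowest member of all, at 20.6 CPM in rDM, had 30.7 and 28.7 CPM in donors A and B but 2.4 CPM, a single read, in donor C, where it had 57.3 CPM without HC/PR. These 3 genes were picked after their values were seen.

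Side by side, the mean level without HC/PR was above the means without insulin and without rosiglitazone in 128 of the 132 members. The order rDM, HC/PR-free, insulin-free, rosiglitazone-free, from high to low, was seen in 102 members, or 77.3%, and the same order with the last 2 exchanged in 17. The choice itself puts rDM above the media without insulin and without rosiglitazone. It also favours a place between them for a medium that it did not use. The counts of 128, 102 and 17 are therefore a description, and no such count over all genes is given here. The 237 genes lost without rosiglitazone but not without insulin had a median difference of -0.51 without HC/PR, and 48.9% of them were lower in all 3 donors. The 72 genes lost without insulin but not without rosiglitazone had a median of -0.18, and 20.8% were lower in all 3 donors. By donor, the medians of A, B and C were -0.32, -0.71 and -0.59 in the first of these sets and -0.39, -0.33 and -0.08 in the second, beside -0.30, -1.07 and -0.62 in the members, so that in donor A the members were the nearest to rDM. No test was made between these sets, whose genes were all chosen with the same rDM libraries. Of the 369 genes lost without rosiglitazone by the same conditions 35.8% were members, and of the 204 lost without insulin 64.7%.

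Since the same libraries chose and measured the members, the choice was repeated on 2 donors and read in the third. Chosen on donors B and C, 146 genes had a median of -1.18 without insulin and -2.80 without rosiglitazone in donor A, and 57.5% were at -1 or lower in both media, against 4.31% of the genes with at least 20 CPM in rDM. Chosen on donors A and C, 141 genes had -1.65 and -2.44 in donor B, with 60.3% at -1 or lower in both against 4.53%. Chosen on donors A and B, 171 genes had -1.34 and -2.29 in donor C, with 52% against 3.48%. Between 52% and 60.3% of the genes thus held both losses in a donor that had not been used to choose them. The gene sets shared 112, 110 and 121 genes with the members.

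Read in the same way, the difference without HC/PR had a median of -0.23 in donor A, -0.93 in donor B and -0.48 in donor C, beside -0.06, 0.03 and -0.12 over the background genes. The difference between the media without rosiglitazone and without insulin had a median of -1.47, -0.81 and -0.75, beside 0.01, -0.38 and -0.17. In donor A 80.1% of the genes were lower without rosiglitazone than without insulin, against 49.5% of the background. In donor B this share was 64.5% against 67.2%, and in donor C 68.4% against 60.5%. The direction between the 2 media thus stood out from other genes in donor A, little in donor C and not in donor B, while the size of the difference was beyond that of the background in each. The table was batch-corrected over all donors together, so the donor left out was not wholly apart from the choice.

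The estimated reads per transcript, which the authors deposited without batch correction, were put through the same conditions. They selected 158 of 38030 transcripts, with a median difference of -1.73 without insulin and -2.71 without rosiglitazone, the values that chose them. Without HC/PR their median was -0.69, against -0.10 over the background transcripts, and 53.2% were lower in all 3 donors, against 19.4%. These transcripts too were chosen to be high in the rDM libraries, so comparisons with rDM are not independent of the choice. Between the media without rosiglitazone and without insulin their median was -0.74, against -0.14. Of the 157 transcripts that could be tested, 0 were called without HC/PR by edgeR or by limma, with 32 and 27 lower at an unadjusted p under 0.05, against 2.36% and 2.56% of all transcripts. Between the 2 media of the choice, as a description, 17 were called lower without rosiglitazone by edgeR, where 0.409% of all transcripts were, and 21 by limma, where 0.672% were. The transcripts were not assigned to the members here, so it is not known how many of the 158 belong to the 132 genes.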

How the data were processed

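The 12 libraries were sequenced by the authors as PCR-cDNA on a Nanopore sequencer, mapped with Minimap2 to the bovine transcriptome (ARS-UCD1.2) and quantified with Salmon. The authors deposited estimated counts per transcript for each library, uncorrected, and a gene table in CPM, for which transcripts were summed with tximport and the 3 batches adjusted with ComBat-seq. Each CPM value was a whole number of reads within 0.01, and these recovered reads are counts after the adjustment.

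Members were selected on log2(CPM + 1), with the differences paired by donor. The members and lists were chosen with earlier results of these data known. limma 3.58.1 (R 4.3.3), with a mean-variance trend, was fitted to all 12 libraries with the donor as a block, over the 9267 genes, of 22372, that reached 5 CPM in 3 or more libraries. A pseudocount of 1 was used, and Benjamini-Hochberg adjustment was made within each contrast. The design takes the donor as a block because each replicate letter is 1 donor and batch per the labels. The 18 pairs of libraries of the same donor had deviations that correlated between 0.184 and 0.625 in the uncorrected transcripts. The block takes out the level of each donor. The p-values thus rest on how far the 3 donors differed in their response to the media, after the correction, pooled over all 12 libraries.

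Alternatives covered edgeR 4.0.16 and DESeq2 1.42.0 on the recovered reads, the block, pool, scaling, filter, pseudocount, threshold, depth, and each donor or library left out. The tests were tested on simulated data. The table of RefSeq genes used here paired 0 of the identifiers with a symbol, so the rule for named genes gave the 2 members with the highest rDM level and at most 2 more, chosen after their values were seen.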

Additional observations from a re-analysis of the deposited data

How the results depend on the processing

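The count of members called without HC/PR was 0 in limma and in 22 of 25 other settings. It was 6 in DESeq2 with the donor as a block and 4 without it, and 1 at an adjusted p under 0.1, where 0.119%, 0.151% and 0.0432% of all genes were called lower. It was 0 with each donor, each rDM library or each HC/PR-free library left out. The 38 members called between the media without rosiglitazone and without insulin, values that the choice used, became 45 with no block, of which 44 were lower, and 32 with all libraries thinned to 295288 reads, a setting added after seeing the data, while 2.26% and 1.2% of all genes were called lower, beside 1.48% in the fit with the block and all reads. The count was 25 with the library pool beside the block, 22 in edgeR with TMM scaling, 23 in edgeR with DESeq2's size factors, 27 in DESeq2, 28 with TMM scaling of the CPM values in limma and 29 at a pseudocount of 10, beside 0.852%, 0.874%, 0.928%, 1.04%, 1.1% and 1.38% of all genes in this order. Among settings added after seeing the data it was 19 in limma with no trend, and 17 in edgeR and 21 in limma on the uncorrected transcripts, beside 0.647%, 0.409% and 0.672% of all features. With a donor left out it was between 16, without donor A or without donor C, and 36, beside 0.507% to 0.852% of all genes. With a single library left out it was 25 without the library of donor A in rDM 0% Ins, 22 without that of donor C there, 22 without that of donor A in rDM 0% Ros, and at most 33, beside 0.712% to 1.29% of all genes. The cause of these changes was not tested. The set itself had 132 genes and would have 44 at a limit of -2 in both media. It had between 141 and 171 with a donor left out, and 193 after TMM scaling, which kept all 132. The median difference between the media without rosiglitazone and without insulin was -1.06, -0.55 at a pseudocount of 10, and between -1.23 and -0.87 with a donor left out, and that without HC/PR was -0.68 and between -0.83 and -0.45. TMM scaling moved the median of all genes tested from 0.19 to -0.02 without insulin and from -0.11 to 0.04 between the 2 media, where the share of all calls that were lower went from 71.4% to 60%. The planned test on uncorrected reads summed per gene was not run, since no table used here links transcripts to genes. Depth limits how far a loss can be followed, since 39 of the 132 members held at most 3 reads in each library without rosiglitazone.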
